A study of Hordeum vulgare with 12 samples.

Results

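In roots of the barley (Hordeum vulgare) line Rolap, 274 small RNA sequences of exactly 18 nt had no entry in miRBase and stood among the 1796 root sequences of 18 to 25 nt that the study deposited as different between low and sufficient phosphate (Pi). They were chosen by length from that list, and the list was itself selected on the measured read counts of the 6 root libraries compared here, with a Bonferroni-corrected p-value. Direction and size of change are therefore given as descriptions, without a test. All 274 members had 18 bases, and 0 of them occurred in the root or shoot miRBase tables. The length of 18 nt was the shortest in the list, and the next class, 19 nt, held 216 sequences, of which 181 were higher under low Pi with a median log2 ratio of 1.54, against 237 of 274 and 1.65 for the 18-nt members.

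The plants grew for 23 days in a soil with 8 mg P per kg. Low-Pi plants received no further P, and the control plants received 60 mg P per kg. Roots and shoots were sequenced separately, with 3 libraries per organ and treatment, and each replicate was a pot holding 3 plants. All plants were of one line, grown in the same soil and harvested at one age, and the root libraries are numbered 4, 5 and 6 for low Pi and 16, 17 and 18 for the control. The low-Pi root libraries held 14999744 to 17614581 reads and the control root libraries 7470998 to 11434616, so every low-Pi library was deeper than every control library, and the part of depth in the results was not tested. Levels are reads per 1000000 of these counted reads (RPM). Reads that the authors removed by trimming and length selection are not in this total. On this scale, 3 reads correspond to 0.17 to 0.20 RPM in the low-Pi and 0.26 to 0.40 RPM in the control libraries. In bulk organs of this kind, fewer cells with a given RNA and less RNA per cell cannot be told apart.

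Most plant miRNAs and small interfering RNAs are cut by Dicer-like enzymes from double-stranded precursors and are longer than the sequences described here. Shorter RNAs also arise when abundant structural RNAs are cut or decay: ribosomal RNA (rRNA), which forms the core of the ribosome, transfer RNA (tRNA), which carries amino acids, the RNA of the signal recognition particle (SRP), which directs new proteins to membranes, and small nuclear (snRNA) and small nucleolar RNA (snoRNA), which act in splicing and in rRNA modification. Phosphate starvation of plants induces recycling of phosphorus from cellular RNA through ribonucleases.

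Members are named r18-1 to r18-274 by falling mean RPM over the 6 root libraries. The most abundant members that have a barley RNA class in the study's comparison with barley cDNA are shown first because they carry most of the reads, and the capitals in the first set mark the 17 bases that r18-3 and the far rarer r18-82 share in shifted frames.

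r18-3: TAGGATAAGTGGGAGCCc

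r18-82: gTAGGATAAGTGGGAGCC

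Further abundant members, and r18-15 as the first of its class, are given in lower case throughout. Of these, r18-4 and r18-6 match rRNA, r18-5 matches tRNA, r18-8 and r18-10 match only cDNA listed as protein-coding, and r18-15 matches SRP RNA.

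r18-4: ggctaagtcggtccggcc

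r18-5: gtcgatatgtccgagtgg

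r18-6: ccgacctactcgaccctt

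r18-8: cattgtcgtccagcccgg

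r18-10: cgtggagacctgggctcg

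r18-15: cgagagcttgtaacccaa

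The 6 most abundant members with a lower mean under low Pi are shown next, since they set the scale of the opposite change. In this list r18-7, r18-31 and r18-39 match rRNA, r18-20 matches tRNA, and r18-42 and r18-46 match protein-coding cDNA only.

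r18-7: tgccgtccgaattgtagt

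r18-20: gactccgtggcccaatgg

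r18-31: AACCCGTCGGCTGTTGGC

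r18-39: cgggcggaagacattgtc

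r18-42: aaggagtctgacatgcgt

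r18-46: ccggttgccgtcgtcgac

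Capitals in r18-31 mark the 18 bases that its longer forms keep. The 2 leading members, r18-1 and r18-2, are shown with their longer forms further on.

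Of the 274 members, 237 had a higher and 37 a lower mean RPM under low Pi. In 233 of the higher members every low-Pi library lay above every control library, and in 35 of the lower members every low-Pi library lay below. Over all 1796 listed root sequences the same held for 85.0% in the higher and 13.1% in the lower direction. Since the list was selected on this contrast, nothing is read from these shares. Among the 285 root miRBase sequences with enough reads to be tested, which were deposited whether or not they changed, 6.67% were higher and 40.7% lower without overlap, and their median log2 ratio was -0.66. The 47 of them that were 18 nt long had a median of -0.44, with 9 of 47 higher.

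The median log2 ratio of low Pi over control was 1.87 for the higher members, with quartiles of 1.25 and 2.43, and -2.41 for the lower members, with quartiles of -2.61 and -2.07. Changes beyond 4-fold were found in 105 of the 237 higher and 29 of the 37 lower members. The median level was 13.5 RPM for the lower and 4.55 RPM for the higher members, and the 20 members under 1 RPM were all higher. The list was selected by a test and the low-Pi libraries were deeper. The part of either in these levels was not tested. Members at 100 RPM or more were 23 higher and 2 lower, where 86.5% of all members were higher.

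**Figure D1:**
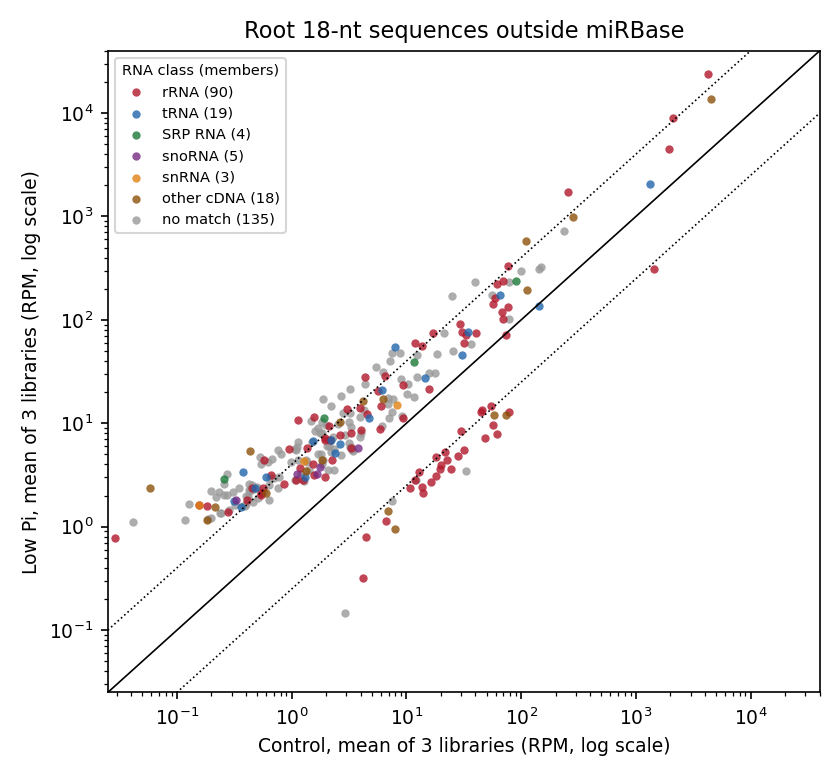
Mean RPM of 273 members in the 3 low-Pi libraries against the 3 control libraries, both on log scales, one point per member coloured by RNA class; the solid line marks equal levels and the dotted lines 4-fold differences. The points form separate clouds above and below the line, and r18-20 and r18-31, both at a log2 ratio of -0.07, lie closest to it. The member with no control reads, r18-274, is not drawn.

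Summed over all members, the low-Pi libraries held 75421, 58517 and 58072 RPM and the control libraries 19457, 21721 and 18692 RPM. The groups did not overlap, and the low-Pi libraries were spread more widely. As a share of the counted reads this was 6.40% ± 0.99 (SD, n = 3) under low Pi and 2.00% ± 0.16 (SD, n = 3) in the control. This is a ratio of 3.21. The ratio was 5.01 with TMM factors from the root miRBase table and 5.65 with no scaling. The lower members alone summed to 698 ± 117 RPM under low Pi and 2569 ± 296 RPM in the control.

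A few members carried this sum. Alone, r18-1 accounted for 36.3 to 37.9% of the members' reads in the low-Pi libraries and for 16.3 to 30.7% in the control libraries. The 10 most abundant members together held 89.1 to 89.3% and 81.0 to 83.8%. Without them the ratio of the summed levels was 1.95 instead of 3.21, so the size of the summed change rests on those 10 sequences. The highest of the low-Pi libraries was replicate 4 for 169 members, and the highest of the controls was replicate 17 for 134 members.

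The rRNA class was the largest with a match, 90 members, and it held both higher and lower members in number. Its higher members, 62 in number, summed to 41137 ± 8137 RPM under low Pi and 9372 ± 1891 RPM in the control (SD, n = 3), while its 28 lower members summed to 526 ± 98.1 and 2223 ± 277 RPM. These 28 made up most of the 37 lower members. Most sequences of this class also matched cDNA listed as protein-coding or non-translating, and the source locus of such a fragment cannot be told apart.

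The most abundant member, r18-1, matched rRNA and stood at 27347, 21760 and 22004 RPM under low Pi and at 5968, 3697 and 3043 RPM in the control. All low-Pi libraries were more than 3 times as high as the highest control library, with a log2 ratio of 2.48. For r18-3, also of rRNA, the values were 12402, 7959 and 6311 RPM against 2700, 1882 and 1691 RPM, a log2 ratio of 2.09. Replicate 4 was the highest low-Pi library for both.

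Of the other abundant rRNA fragments, r18-4 was at 4853, 5116 and 3433 RPM under low Pi and at 1636, 2447 and 1691 RPM in the control, a log2 ratio of 1.21. The largest ratio among the abundant members was that of r18-6, with 2778, 1373 and 1022 RPM against 298, 196 and 280 RPM and a log2 ratio of 2.74. Its low-Pi libraries differed among themselves by more than the control libraries did, and still did not reach down to them.

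The lower rRNA fragments were led by r18-7, with 364, 233 and 338 RPM under low Pi and 1377, 1220 and 1687 RPM in the control, a log2 ratio of -2.20. No other lower member came near this level. The next that changed by more than 2-fold, r18-39, stood at 11.9, 11.2 and 15.7 RPM against 54.2, 106 and 76.8 RPM, a log2 ratio of -2.61. The rRNA fragment r18-31, by contrast, had overlapping groups, with 75.1 RPM in replicate 4, 62.1 RPM in replicate 5 and a value next to that of replicate 4 in replicate 6, against 75.4, 70.9 and 75.6 RPM in the control.

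Of the 19 tRNA members 18 were higher, beside 86.5% of all members. Their median log2 ratio was 1.42, above 1.28 for rRNA and 1.10 for snoRNA members and below those of the other classes. The summed level of the tRNA class differed least, with 2656 ± 611 RPM under low Pi and 1644 ± 231 RPM in the control (SD, n = 3), a ratio of 1.62. Its leading member, r18-5, held most of this level, with 2570, 1510 and 2128 RPM under low Pi and 1134, 1296 and 1541 RPM in the control. Here replicate 5 lay just under replicate 18, so the groups overlapped, at a log2 ratio of 0.64. The single tRNA member with a lower mean, r18-20, stood at 138, 124 and 150 RPM against 127, 147 and 158 RPM, a log2 ratio of -0.07 with fully overlapping groups. When libraries were scaled by TMM factors from the root miRBase table, r18-20 and r18-31 came out higher instead, at 0.58 and 0.57.

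All 4 SRP RNA members, all 5 snoRNA members and all 3 snRNA members were higher. Since 86.5% of all members were higher, nothing is read from these counts. The SRP RNA fragment r18-15 stood at 270, 227 and 217 RPM under low Pi and at 80.5, 109 and 81.5 RPM in the control, a log2 ratio of 1.40. A rarer SRP RNA fragment, r18-222, showed one of the largest increases, from 0.26, 0.25 and 0.27 RPM to 2.93, 2.55 and 3.12 RPM, on 7 control reads in all. It differs by a single substitution from r18-122, another SRP RNA member. The leading snRNA member, r18-90, was at 16.6, 14.7 and 13.7 RPM against 5.51, 10.4 and 8.83 RPM, without overlap. The leading snoRNA member, r18-144, overlapped between the groups, with 5.80, 4.83 and 6.77 RPM against 2.36, 3.83 and 5.09 RPM.

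**Figure D2:**
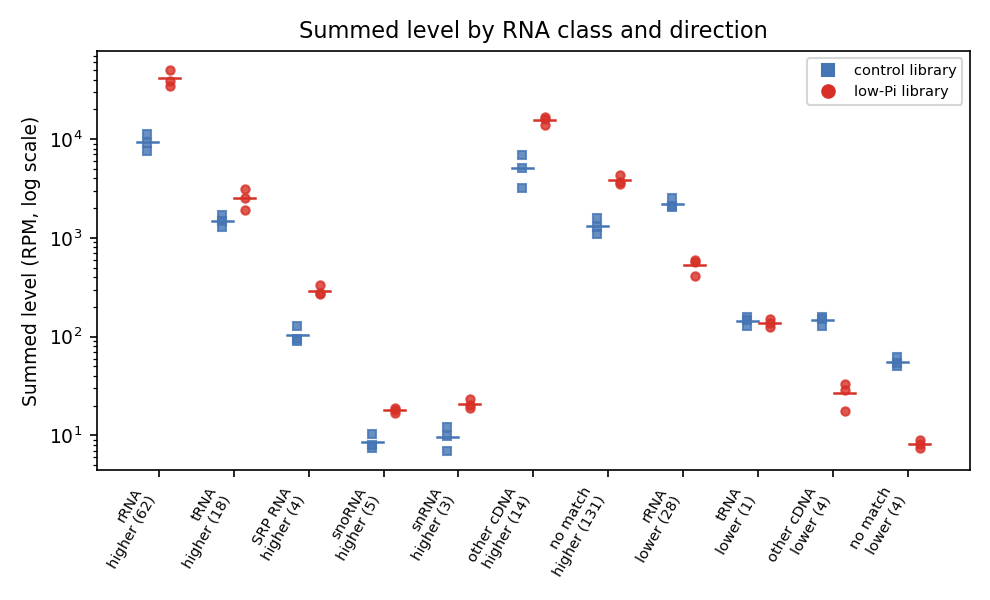
Summed RPM of the members of each RNA class, split by direction, on a log scale; squares are the 3 control and circles the 3 low-Pi root libraries, short lines are group means, and the number of members is in brackets. The rRNA members appear on both sides, 62 higher and 28 lower, while all SRP RNA, snoRNA and snRNA members are higher, beside 86.5% of all members.

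Another 18 members matched only protein-coding or non-translating cDNA, 14 of them higher and 4 lower, where 86.5% of all members were higher. They include the second most abundant member, r18-2, with 14597, 11964 and 14446 RPM under low Pi and 2675, 6280 and 4677 RPM in the control, a log2 ratio of 1.59. Its controls spread over more than 2-fold, with replicate 17 the highest. Its neighbour r18-10, which starts 2 bases further 3′, was at 587, 598 and 536 RPM against 92.3, 148 and 87.4 RPM, a log2 ratio of 2.39. For r18-8 the levels were 1108, 1083 and 760 RPM against 301, 332 and 209 RPM, again without overlap.

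In the opposite direction, r18-42 was at 13.1, 7.61 and 15.5 RPM against 59.4, 87.4 and 73.0 RPM, and r18-46 at 13.1, 8.23 and 15.1 RPM against 54.5, 49.4 and 70.4 RPM. Both were lower in every low-Pi library. The largest increase among members of at least 1 RPM was that of r18-241, with 111 reads over the low-Pi and 2 over the control libraries. Scaled by library totals this is a ratio of 31.4, with a 95% exact interval of 8.50 to 263 that covers counting error only. The member r18-183, which matched protein-coding and non-translating cDNA, was at 0.44, 0.87 and 0 RPM in the control and at 3.75 to 6.43 RPM under low Pi, on 12 control reads in all, and its log2 ratio of 3.64 moved between 3.05 without control replicate 18 and 4.62 without control replicate 17.

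The largest decreases with a class were those of r18-204, an rRNA fragment, with 0.33, 0.17 and 0.46 RPM under low Pi against 4.29, 4.94 and 3.21 RPM, and of r18-154, a protein-coding cDNA fragment, with 0.80, 0.85 and 1.19 RPM against 9.10, 7.29 and 7.36 RPM. In both, the low-Pi values lay several-fold below the lowest control, and those of r18-204 rested on 5, 3 and 7 reads. Then came r18-49, at a log2 ratio of -2.96, whose values follow with its longer forms, and r18-80, also of rRNA, at 3.80, 2.78 and 4.18 RPM against 18.2, 26.3 and 29.2 RPM.

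**Figure D3:**
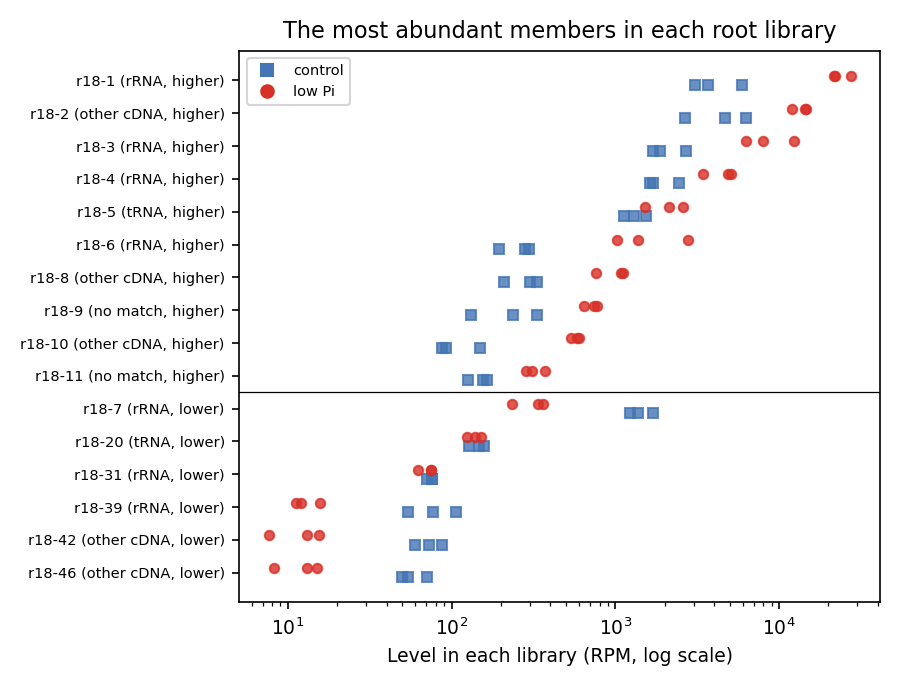
RPM of the 10 most abundant higher members (above the line) and the 6 most abundant lower members (below it) in each root library, on a log scale; squares are control and circles low-Pi libraries, with the RNA class in brackets. Squares and circles overlap in r18-5, r18-20 and r18-31 and are apart in the other members drawn.

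The largest class, 135 members, matched none of the barley cDNA classes. It held 131 higher and 4 lower members, where 86.5% of all members were higher. It held little of the level, 3841 ± 399 RPM under low Pi and 1385 ± 250 RPM in the control (SD, n = 3). The most abundant were r18-9, with 776, 643 and 744 RPM against 132, 332 and 238 RPM, r18-11, with 373, 307 and 284 RPM against 156, 164 and 126 RPM, and r18-12, with 377, 266 and 282 RPM against 154, 152 and 124 RPM. None of these overlapped between the groups. The largest increases without a match at 1 RPM or more, in r18-218, r18-228 and r18-242, rested on 7, 7 and 5 reads over the control libraries. Their log2 ratios of mean RPM were 3.56, 3.34 and 3.49, and the ratios of their pooled reads had 95% exact intervals, for counting error only, of 5.78 to 30.9, 4.69 to 25.3 and 4.98 to 37.7. Leaving out each library in turn moved the log2 ratio of r18-242 between 3.13 and 4.32, the highest without control replicate 17. Large decreases were found in r18-223 and r18-70, at log2 ratios of -4.32 and -3.26. That of r18-223 rested on 3, 3 and 1 reads in the low-Pi libraries, against 31, 29 and 18 reads in the control. The rarest member, r18-274, had 32 reads over the low-Pi and 0 over the control libraries, and was at least 6.04-fold higher against a floor of 3 reads over the control group.

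Many members without a match were near copies of abundant members. Of all 274, 71 differed by a single substitution from a more abundant member, here called the parent, and 61 of these 71 belonged to the 135 without a match. Substitutions are written with the parent base, the position counted from 1 at the 5′ end, and the variant base. The parents r18-1, r18-2 and r18-3 had 22, 11 and 11 variants, 44 in all. The variants of r18-1 reached 0.01 to 0.20% of its level and those of r18-3 0.01 to 0.10%. The change most often seen was C to T, in 19 of the 71, and 16 substitutions were at position 1 and 3 at position 18.

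Variants changed with their parents in 70 of 71 cases. The variants were themselves listed for changing, and 86.5% of all members were higher, so nothing is read from this share. The difference in log2 ratio had a median of 0.11 with quartiles of -0.16 and 0.40, over the 70 variants with control reads. All variants together took 2.55 to 3.18% of the members' reads in the low-Pi libraries and 2.14 to 3.56% in the control libraries. Leaving all variants out changed the count of higher members from 237 to 167 and that of lower members from 37 to 36, and left 74 members without a match. The origin of the variants was not tested.

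The variants of r18-2 at its first base were by far the most abundant. The change G1C, which gives r18-9, stood at 5.32, 5.38 and 5.15% of the reads of r18-2 in the low-Pi libraries and at 4.94, 5.29 and 5.09% in the controls. The changes G1T and G1A, r18-14 and r18-16, lay at 2.08 to 2.31% and 1.62 to 1.77% over the 6 libraries. The shares hardly moved between libraries, although r18-2 itself ranged from 2675 to 14597 RPM.

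The same variants recurred on the longer forms of r18-2. On the 19-nt form G1C was at 5.14 to 5.71% and on the 20-nt form at 4.63 to 5.56%, and G1T was at 2.06 to 2.67% and 2.23 to 3.23%. Their log2 ratios followed the form and not the substitution: 0.85 and 0.83 on the 19-nt form, which itself was at 0.86, and 3.05 and 2.91 on the 20-nt form, which was at 2.98.

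The only variant that changed opposite to its parent was r18-70, the C12T variant of the tRNA fragment r18-5. It was at 2.87, 3.75 and 3.78 RPM under low Pi and at 40.4, 31.6 and 27.8 RPM in the control, a log2 ratio of -3.26 against 0.64 for r18-5. As a share of r18-5 it stood at 0.11, 0.25 and 0.18% in the low-Pi and at 3.56, 2.44 and 1.81% in the control libraries, with no overlap.

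**Figure D4:**
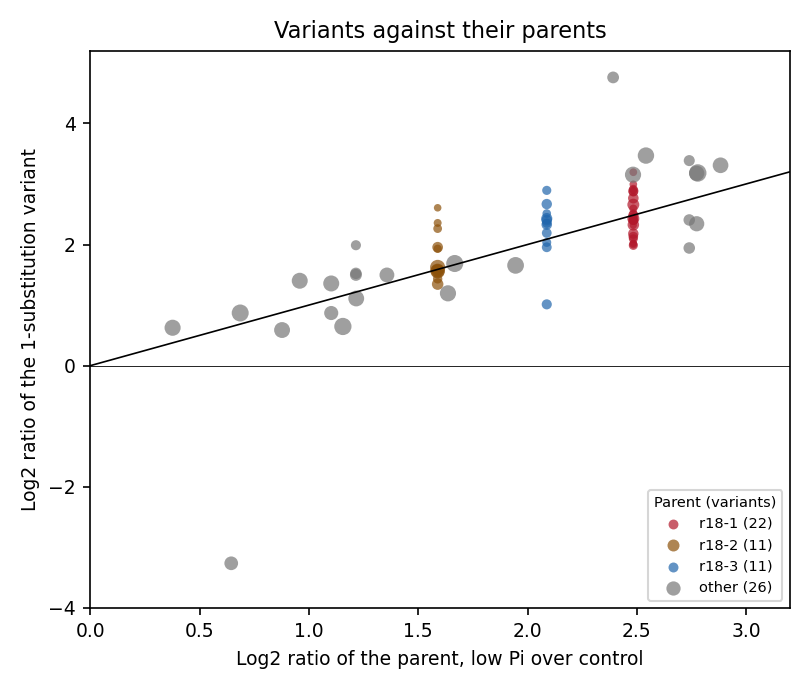
Log2 ratio of low Pi over control of 70 variants with 1 substitution against that of their more abundant parents, coloured by parent; larger points are variants at a higher percent of the parent, and the line marks equal ratios. Most variants lie near the line. Far below it is r18-70, at -3.26 against 0.64 for its parent r18-5. Far above it is r18-272, at 4.76 against 2.39 for its parent r18-10, on 1 control read.

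Members also overlapped each other. Where the end of one member equals the start of another over at least 12 nt, both were put into one group, which gave 22 groups with 82 members. Of these groups, 17 held higher members only, 3 lower members only, and 2 both. The largest, of 19 members around r18-1, was entirely higher, at 25572 ± 4106 RPM under low Pi and 4529 ± 1558 RPM in the control, and r18-1 made up 92.8% of it. The next, 7 members around r18-2 and 7 around r18-3, had leading shares of 87.3 and 99.5%. The groups around r18-12, r18-25 and r18-19, with 6, 6 and 3 members, were all higher, at summed log2 ratios of 1.12, 0.87 and 1.62. Their leading members r18-25 and r18-19, both of rRNA, stood at 134, 138 and 126 RPM against 63.1, 101 and 65.2 RPM, and at 279, 217 and 169 RPM against 60.9, 68.5 and 53.9 RPM.

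A group that went both ways contained r18-3 and r18-82, the pair with the marked bases above. They share 17 bases, and r18-82 starts 1 base earlier and ends 1 base earlier. While r18-3 was at 8890 ± 3151 RPM under low Pi and 2091 ± 536 RPM in the control (SD, n = 3), r18-82 was at 4.37 ± 1.19 and 22.7 ± 5.31 RPM, a log2 ratio of -2.38. The rare form thus moved opposite to the abundant one, at a level more than 90 times lower.

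Of the 274 members, 159 also occurred inside longer listed root sequences of 19 to 25 nt. Direction was shared in 343 of 343 pairs with a common 3′ end, in 151 of 153 with a common 5′ end and in 310 of 314 where the longer sequence went past the member on both sides. The median size of the difference in log2 ratio was 0.47, 0.72 and 0.64 in these 3 kinds of pair. The pairs overlap and are not independent, and most of the list is higher, so nothing is read from these shares.

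The family with the most reads belonged to r18-1, which occurred in 20 listed sequences with a class, itself included, all of them higher. Counting those without a match, 56 longer listed sequences contained it. The forms with the most reads are shown because their log2 ratios differed with the 3′ end, and capitals mark r18-1.

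r18-1: TACTCGACCCTTCGGCCG

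19-nt form: cTACTCGACCCTTCGGCCG

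20-nt form: ccTACTCGACCCTTCGGCCG

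21-nt form: accTACTCGACCCTTCGGCCG

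25-nt form: accgaccTACTCGACCCTTCGGCCG

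20-nt form, 3′ extended: cTACTCGACCCTTCGGCCGg

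21-nt form, 3′ extended: ccTACTCGACCCTTCGGCCGg

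22-nt form, 3′ extended: accTACTCGACCCTTCGGCCGg

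The 25-nt form was the most abundant, at 65591 ± 5637 RPM under low Pi and 15848 ± 4167 RPM in the control (SD, n = 3), a log2 ratio of 2.05. Among the forms with a class, the 11 that end where r18-1 ends had log2 ratios of 1.89 to 2.86. The 4 with 1 more base at the 3′ end had 1.40 to 1.96, and the 5 with 3 or 5 more bases had 0.56 to 0.85. Listed forms without a match went beyond these ranges. Those with the 3′ end of r18-1 included log2 ratios of 1.44 and 4.88, and a form with 1 more base was at 2.40. The 22-nt form with the extra base, for example, was at 4112 ± 659 against 1158 ± 308 RPM, a log2 ratio of 1.83, while the 21-nt form that differs from it only by lacking that base was at 12682 ± 3465 against 1757 ± 465 RPM, a ratio of 2.85.

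The overlapping r18-6, which starts 6 bases before r18-1 within that 25-nt form, showed a similar order. Its forms with a class and 0, 1 or 2 added 3′ bases, 15 in all, had log2 ratios of 2.14 to 3.69. The 3 forms with 3 added bases had 1.05 to 1.68, and the 5 with 6 added bases 1.40 to 2.05. In all, 46 longer listed sequences contained r18-6, and those without a match are not in these ranges. The longest forms of both families are in part the same sequences.

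The longer forms of r18-2 also differed among themselves, but not by the 3′ end alone. The most abundant forms are shown because the middle one changed least, with capitals marking r18-2.

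r18-2: GCCGTGGAGACCTGGGCT

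19-nt form: GCCGTGGAGACCTGGGCTc

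20-nt form: GCCGTGGAGACCTGGGCTcg

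From r18-2 at a log2 ratio of 1.59, the 19-nt form stood lower, at 0.86, with 2087 ± 216 RPM under low Pi and 1150 ± 272 RPM in the control. The 20-nt form stood higher, at 2.98, with 1877 ± 243 and 239 ± 79.2 RPM. In the control the 19-nt form was thus about 5 times as abundant as the 20-nt form, and under low Pi the 2 were nearly level. A rarer 21-nt form with the 3′ end of the 20-nt form and 1 more 5′ base was at a log2 ratio of 1.43. Another 21-nt form, with 3 added 3′ bases, was at 2.07.

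For r18-31, whose groups overlapped, the longer forms stood apart between the groups. They are shown because they share its 5′ end, with capitals marking r18-31.

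19-nt form: AACCCGTCGGCTGTTGGCg

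20-nt form: AACCCGTCGGCTGTTGGCgg

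The 19-nt form was at 291 RPM under low Pi and 111 RPM in the control, a log2 ratio of 1.39, and the 20-nt form at 53.8 and 23.7 RPM, a ratio of 1.18. Both were above the control in every library, while r18-31 was at 70.7 ± 7.50 and 74.0 ± 2.64 RPM (SD, n = 3).

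The clearest reversal by 3′ end was in the rRNA family of r18-49. Its forms are shown because the same 17 bases, in capitals, were higher or lower under low Pi with different bases after them.

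r18-49: gGTACGGACAAGGGGAAT

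19-nt form: gGTACGGACAAGGGGAATc

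21-nt form: actgGTACGGACAAGGGGAAT

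22-nt form: aactgGTACGGACAAGGGGAAT

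20-nt form: GTACGGACAAGGGGAATccg

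25-nt form: aactgGTACGGACAAGGGGAATccg

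Among forms with a class, the 5 ending with the shared bases had log2 ratios of -2.96 to -2.48, and the 2 with 1 added base -2.20 and -2.09. The 2 forms with 3 added bases were higher under low Pi, at 2.01 and 0.96. By library, r18-49 stood at 7.13, 6.30 and 10.2 RPM under low Pi and at 58.2, 72.4 and 54.1 RPM in the control. The 25-nt form contains the whole 22-nt form and adds 3 bases. It was at 123 ± 30.4 RPM against 63.1 ± 13.4 RPM in the control, whereas the 22-nt form was at 20.2 ± 6.78 against 117 ± 11.5 RPM.

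By contrast, the family of r18-83, r18-111 and r18-112 went one way. These 3 rRNA members share 15 bases that occurred in 18 listed sequences with a class. All 18 were lower, with log2 ratios of -2.70 to -1.72 whatever the 3′ end. The 22-nt form was the most abundant and is shown with the 15 bases in capitals.

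22-nt form: gcaaCGGATATCTCGGCTCtcg

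It stood at 71.8 ± 25.4 RPM under low Pi and 440 ± 69.7 RPM in the control (SD, n = 3). The 3 members themselves were rarer, at 5.22, 2.43 and 2.14 RPM against 21.7, 13.6 and 13.9 RPM.

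**Figure D5:**
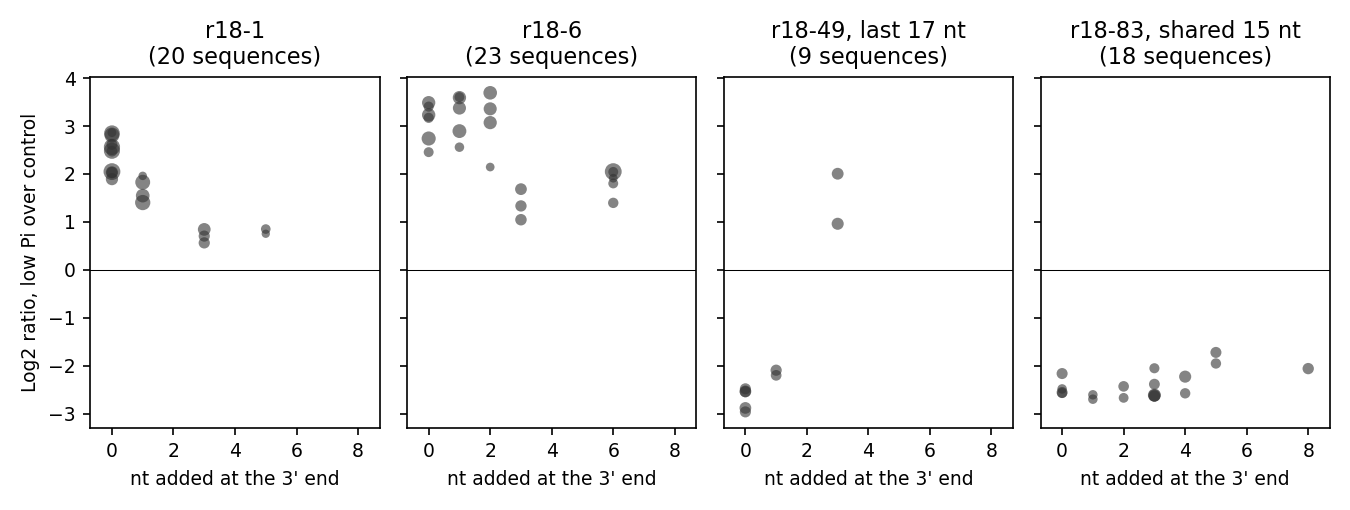
Log2 ratio of low Pi over control of listed root sequences with a class that contain r18-1, r18-6, the last 17 bases of r18-49 or the 15 bases shared with r18-83, against the number of bases added at the 3′ end; larger points are more abundant. Ratios are lower with 3 or more added bases for r18-1 and r18-6, change sign between 1 and 3 added bases for r18-49, and are all negative for r18-83.

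Base composition also differed between the directions. A T at the first base, where plant Argonaute proteins discriminate between small RNAs, was found in 65 of the 237 higher and 2 of the 37 lower members. The parents r18-1 and r18-3 start with T and had 22 and 11 higher variants, of which 2 and 2 changed the first base. Much of the higher count is thus these parents and their near copies, and nothing is read from the contrast. The median GC content was 61.1% for the higher and 55.6% for the lower members. At the last base, 36.1% of all members had G and 35.4% had C, while among the listed sequences of 19 to 25 nt G was more frequent, from 45.8% at 23 nt to 59.7% at 25 nt. These shares describe related sequences, since overlapping and variant members count separately.

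The treatment could be compared in the shoot only through related sequences, because 0 of the members were among the 199 listed shoot sequences outside miRBase, of which 83.4% were higher under low Pi. These were also deposited because they changed. Of them, 11 shared at least 14 nt with a member. In 9 the direction was that of the most abundant root member sharing the run, 5 higher and 4 lower. Most of both lists was higher and some members count more than once, so nothing is read from this share. Sequences of 20 and 23 nt that overlap r18-7 were at 43.0 ± 2.55 and 19.9 ± 2.49 RPM in low-Pi shoots against 142 ± 27.1 and 78.6 ± 19.1 RPM in control shoots (SD, n = 3), log2 ratios of -1.72 and -1.98 beside -2.20 for r18-7 in roots. Of the 2 others, one overlaps r18-74, at a log2 ratio of -1.83 in shoots and 1.33 in roots, and one overlaps the tRNA fragment r18-20, at 2.23 in shoots and -0.07 in roots. The difference between the organs was not tested for these.

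A single member, r18-221, shared 14 nt or more with sequences of the miRBase tables, 4 in roots and 5 in shoots, all assigned to the precursor of MIR1511. It had no barley cDNA match and stood at 2.37 ± 0.16 RPM under low Pi and 0.77 ± 0.36 RPM in the control roots. Only the most abundant of the MIR1511 sequences had enough reads for a test, and it is shown for that reason. It was found through its overlap with a member listed for changing in the same root libraries, so its root test is not independent of the selection.

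MIR1511: aacctggctctgatacca

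In roots it was at 38.3, 21.6 and 26.2 RPM under low Pi and at 11.3, 11.5 and 14.5 RPM in the control, without overlap, with replicate 4 the highest. Its log2 fold change was 1.21 ± 0.31 (SE), with an adjusted p of 0.00897 in edgeR's quasi-likelihood test with Benjamini-Hochberg adjustment over 285 sequences, of which 5.26% were called higher and 30.9% lower. Without replicate 4 the log2 fold change was 0.95 and the adjusted p 0.0616 by the same test, so the call did not hold with that library left out. The remaining low-Pi libraries still lay above every control library. In shoots the same sequence was at 55.7, 46.4 and 57.4 RPM under low Pi and 34.4, 56.0 and 61.7 RPM in the control, and the groups overlapped. There its log2 fold change was 0.07 ± 0.27 with an adjusted p of 0.907 by the same test over 484 sequences, 9.3% of them called higher and 1.24% lower. The difference between the organs, tested as an interaction in edgeR, was -1.14 ± 0.42 for shoots minus roots, with an adjusted p of 0.0877 over 535 sequences, which did not pass 0.05.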

How the data were processed

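Small RNA libraries of barley roots and shoots, 3 per organ and treatment, were trimmed, counted and compared with miRBase by the authors. The deposited tables give counts of each unique sequence per library and reads per 1000000 (RPM) of the counted reads of that library. The library total of counted reads was recovered as the ratio of both. The tables outside miRBase list only sequences past the authors' Bonferroni-corrected test, and columns with the authors' test statistics, fold changes and p-values were not used, nor were 24 columns that repeat per-library values. RNA class names come from the study's comparison with barley cDNA; a member with several names was put in the first of rRNA, tRNA, snoRNA, snRNA and SRP RNA that applied, and in other cDNA if it had only protein-coding or non-translating cDNA. The members and lists were chosen with earlier results of these data known.

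Log2 ratios are of mean RPM, with no pseudocount. Named members are the 10 most abundant higher and 6 most abundant lower, the 6 largest changes each way among members of at least 1 RPM without overlap, the first of the 6 largest overlap groups and of each class, and the 2 smallest log2 ratios, 34 in all. Others, such as r18-82 and r18-83, were named after their values were seen. Root and shoot miRBase tables were tested in edgeR 4.0.16 (R 4.3.3) by quasi-likelihood, with library totals, a low-count filter at 10 reads and Benjamini-Hochberg adjustment, and with TMM factors and DESeq2 1.42.0 as alternatives, after the script was tested on simulated data. Intervals are exact binomial at 95% on reads, which without molecular identifiers cover counting error only. Replicates are pots, so p-values measure the spread between pots. The organ labels were not checked, since no marker sequence was fixed for either organ.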

Additional observations from a re-analysis of the deposited data

How the results depend on the processing

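Counts of higher and lower members ranged from 237 to 238 and from 36 to 37 when each root library was left out, and the log2 ratio of the summed levels, 1.68, from 1.55 to 1.75. Scaling by TMM factors or not at all gave 239 higher and 35 lower members and raised the summed log2 ratio to 2.33 and 2.50. The median log2 ratio of single members shifted by 0.65 with TMM and by 0.83 without scaling. Without the 10 most abundant members the summed log2 ratio was 0.97. Only 77 higher and 23 lower members reached a mean of 10 RPM. Without variants of a more abundant member, an alternative added after the data were seen, 167 higher and 36 lower members remained and the summed log2 ratio was 1.68. Overlaps of at least 15 or 10 nt gave 72 or 86 members in groups instead of 82, and 1 allowed mismatch put 196 instead of 159 members inside longer sequences.

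For the MIR1511 sequence the root log2 fold change was 1.85 with TMM and 1.83 with DESeq2, both past the threshold, and 0.95 to 1.38 when each library was left out, where only leaving out low-Pi replicate 4 ended the call. In shoots the leave-one-out range was -0.15 to 0.23, never past the threshold, with the sign reversed without control replicate 16. The cause was not tested. The low-Pi and control libraries of one organ share no numbers, so a replicate block applies only to the difference between organs. Same-numbered root and shoot libraries did not deviate together (correlations of -0.12 to 0.06 over 535 sequences). A fit with the number as a replicate block, added after the data were seen, gave -1.07 with an adjusted p of 0.178 for the MIR1511 sequence in edgeR, and 33 instead of 45 calls. Members near 1 RPM rest on few reads in the control libraries, or in the low-Pi libraries where they were lower. There were 6 members with 3 or fewer control reads in all.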
